A study of Mus musculus with 5 samples.

Results

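The venous endothelial cells of these mouse heart libraries were 60 of 10961 deposited cells, or 0.547% (95% exact binomial interval 0.418 to 0.704%). They were picked from the deposited values, natural logs of 1 plus the UMIs (unique molecular identifiers, counted RNA molecules) of a gene per 10000 UMIs of the cell. A member had Cdh5 or Pecam1 above 0, Vwf at 1.5 or more, Nr2f2 above 0 and Npr3 below 1. It also had no UMI of Cytl1, Prox1, Mmrn1, Pdgfra or Ptprc, genes of endocardium, lymphatic endothelium, fibroblasts and leukocytes. These genes chose the members, so their values are given as a description. Within each library the members were set against 2268 cells with Cdh5 and Gpihbp1 above 0 and no Vwf, here called Gpihbp1+ Vwf- cells. Gpihbp1 anchors lipoprotein lipase on capillary endothelium. They were also set against 2167 cells with Npr3 at 1.5 or more, called Npr3-high, Npr3 being a natriuretic peptide receptor of the endocardium. The comparison classes shared 10 cells, and neither shared a cell with the members.

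The study sorted interstitial cells of the adult mouse heart by surface cKit, DDR2 and CD45 and profiled them with 10x droplet libraries that read the 3′ ends of polyA RNA. The 5 libraries came from 4 sorts: cKit-/DDR2+, cKit+/DDR2- (2 libraries), cKit+/DDR2+/CD45- and cKit+/DDR2+/CD45+. cKit is a receptor tyrosine kinase of progenitor, mast and some endothelial cells, DDR2 a collagen receptor of fibroblasts, and CD45, encoded by Ptprc, marks leukocytes. All hearts were collagenase-digested, and cardiomyocytes were removed by low-speed spinning and strainers before the sort. The labels name no allele, agent, strain, age in weeks or number of animals for any sort.

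Veins and venules return blood to the heart, and their lining is the main place where leukocytes leave the circulation. Nr2f2, the transcription factor also called COUP-TFII, holds venous identity by repressing Notch signalling, which drives the arterial program. Vwf, von Willebrand factor, is stored in endothelial granules together with P-selectin (Selp) and captures platelets after injury. Venous cells are further known for Vcam1, the adhesion receptor for leukocyte integrins, for Lrg1, a secreted glycoprotein that modifies TGF-beta signalling, and for Ackr1, the chemokine-presenting receptor of postcapillary venules.

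Library totals ran from 4047326 to 44847778 UMIs, with a median of 7529 to 10972 UMIs per cell. The smaller cKit+/DDR2- library and the cKit+/DDR2+/CD45+ library shared 190 cell barcodes, whereas every other pair shared 1 to 3. Where a barcode was shared, the cKit+/DDR2+/CD45+ copy held a median of 622.5 UMIs and its partner 12133.5. All 3 members from cKit+/DDR2+/CD45+ (545, 781 and 997 UMIs) carried such barcodes, and none of their 3 partners was a member, each having Cytl1 UMIs. The only member of the smaller cKit+/DDR2- library (10592 UMIs) also had a copy, of 583 UMIs, without Nr2f2. Without shared barcodes 56 members were left, all in the other 3 libraries.

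Venous cells formed 0.0770 to 0.993% of a library. There were 30 in 3020 cells of cKit+/DDR2- replicate 2 (0.993%, 0.671 to 1.42%), 13 in 1327 cells of cKit+/DDR2+/CD45- (0.980%, 0.523 to 1.67%) and 13 in 2280 cells of cKit-/DDR2+ (0.570%, 0.304 to 0.973%). The smaller cKit+/DDR2- library had 1 in 436 cells (0.229%, 0.00581 to 1.27%) and cKit+/DDR2+/CD45+ 3 in 3898 (0.0770%, 0.0159 to 0.225%). The intervals cover counting error only, and those of the 3 larger shares overlap. Of endothelial cells (Cdh5 or Pecam1 above 0, no Ptprc), members were 0.893% in cKit-/DDR2+, 0.254% and 1.52% in the cKit+/DDR2- libraries, 1.06% in cKit+/DDR2+/CD45- and 1.18% in cKit+/DDR2+/CD45+. A sort sets what share of cells is endothelial, so differences in these shares need not be differences in the heart.

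**Figure D1:**
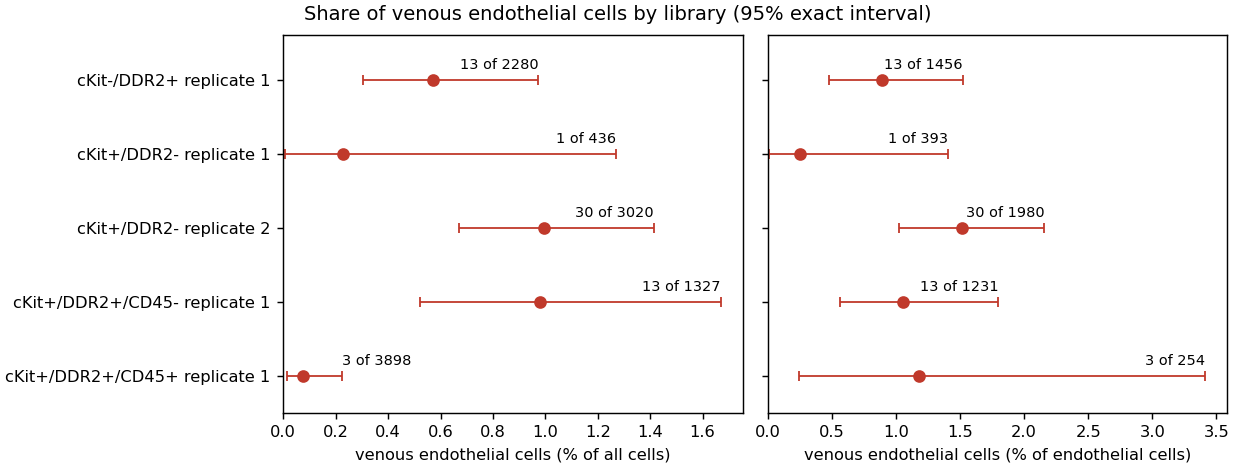
Venous endothelial cells as a percentage of all cells of a library (left) and of its endothelial cells (right), with 95% exact binomial intervals as bars. The intervals of cKit-/DDR2+, cKit+/DDR2- replicate 2 and cKit+/DDR2+/CD45- overlap, and cKit+/DDR2+/CD45+ sits at 0.0770% of all cells and 1.18% of endothelial cells.

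The Vwf threshold passed through a continuous range. Vwf of members ran from 1.52 to 4.31 ln units with a median of 2.60, and 16 members lay from 1.5 to below 2.0. Just outside, 19 cells met every other condition with Vwf from 1.0 to below 1.5, the highest at 1.45, and 28 had Vwf above 0 and below 1.0. On the Npr3 side, 5 members held Npr3 above 0 and below 1, and 4 otherwise qualifying cells were excluded with Npr3 from 1 to below 1.5.

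Levels below are CPM, the summed UMIs of a gene in a class and library scaled to the same class total in every library, in the order cKit-/DDR2+, cKit+/DDR2- replicate 2, cKit+/DDR2+/CD45-. These are the libraries with at least 10 members, holding 13, 30 and 13 venous cells with 78085, 247774 and 149761 UMIs. One UMI is therefore worth about 12.8, 4.04 and 6.68 CPM, so cKit-/DDR2+ is the least precise. A venous cell held a median of 6334, 8089.5 and 10349 UMIs, a Gpihbp1+ Vwf- cell 5292, 6502 and 6682, and an Npr3-high cell 8631, 9773 and 11353.

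Checked against its markers, the label held in part. Vwf and Nr2f2 chose the members, so their levels are a description and cannot check the label. Vwf stood at 704, 2111 and 1576 CPM, and at 2104, 2287 and 2097 CPM in Npr3-high cells. Nr2f2 was 256, 359 and 341 CPM against 34.1, 359.9 and 119.7 in Gpihbp1+ Vwf- cells, alike in cKit+/DDR2- replicate 2, where 162 of 359 of those cells had UMIs of the lymphatic gene Mmrn1. Vcam1 was present in 44 of 60 members, Lrg1 in 24 of 60 and Selp in 24 of 60. Ackr1 had UMIs in 3 of 60, at 0, 8.07 and 13.4 CPM, and was thus at or near 0 in every library.

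Lrg1 and Selp had few UMIs in cKit-/DDR2+ and more in the other 2 libraries. Lrg1 had 12.8, 339 and 187 CPM (1 of 13, 15 of 30 and 6 of 13 cells) and Selp 12.8, 178 and 86.8 CPM (1 of 13, 15 of 30 and 7 of 13 cells). With every cell thinned to 4000 UMIs, Lrg1 was found in 0 of 12, 10 of 30 and 3 of 13 and Selp in 0 of 12, 10 of 30 and 2 of 13 venous cells. Fibroblast-marker cells of cKit-/DDR2+, which should lack both genes, had each in 1 of 708 at that depth. Of the 5 venous markers, Vwf and Nr2f2 chose the members of cKit-/DDR2+. Outside the rule only Vcam1 was found there in more than 1 cell, with 1 cell carrying Lrg1 and none Ackr1. As given below, Vcam1 did not pass the test against Npr3-high cells.

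Several defining genes of arteries and capillaries were close to 0. The Notch target Hey1 stood at 0, 4.04 and 6.68 CPM, the connexin gene Gja4 at 0, 4.04 and 0 CPM, and Gja5, Sema3g and Alpl at 0 in all 3 libraries. Other arterial genes were present: of 17 listed, 10, 14 and 12 had UMIs, summing to 1716, 1203 and 1376 CPM against 4332, 1854 and 2522 in Gpihbp1+ Vwf- and 810.5, 657 and 758 in Npr3-high cells. Among them, the transcription factor gene Mecom had UMIs in 44 of 60 members, the microtubule regulator gene Stmn2 in 36 of 60 and the growth factor gene Vegfc in 34 of 60. The capillary genes Btnl9 and Car4 had no UMI in any of the 3 libraries, but 18, 18 and 17 of 20 capillary-list genes did. These summed to 33579, 20527 and 32478 CPM in venous and 34756, 20513 and 37033 CPM in Gpihbp1+ Vwf- cells, with Fabp4 in 59 of 60 members, Cd36 in 56 of 60 and Gpihbp1 in 41 of 60. Plvap, which forms the diaphragms of fenestrae and caveolae in venular and endocardial cells, varied from 0 in cKit-/DDR2+ through 182 to 40.1 CPM. Summed markers of leukocytes other than macrophages were at 0, those of macrophages 25.6, 60.5 and 6.68 CPM and those of pericytes 115, 60.5 and 274 CPM. Kit, the gene of one sort antigen, had no UMI in any of the 60 members, while Gpihbp1+ Vwf- cells had it in 70 of 1081, 43 of 359 and 115 of 564. Ddr2 had a UMI in 1 of 13, 0 of 30 and 1 of 13 members.

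**Figure D2:**
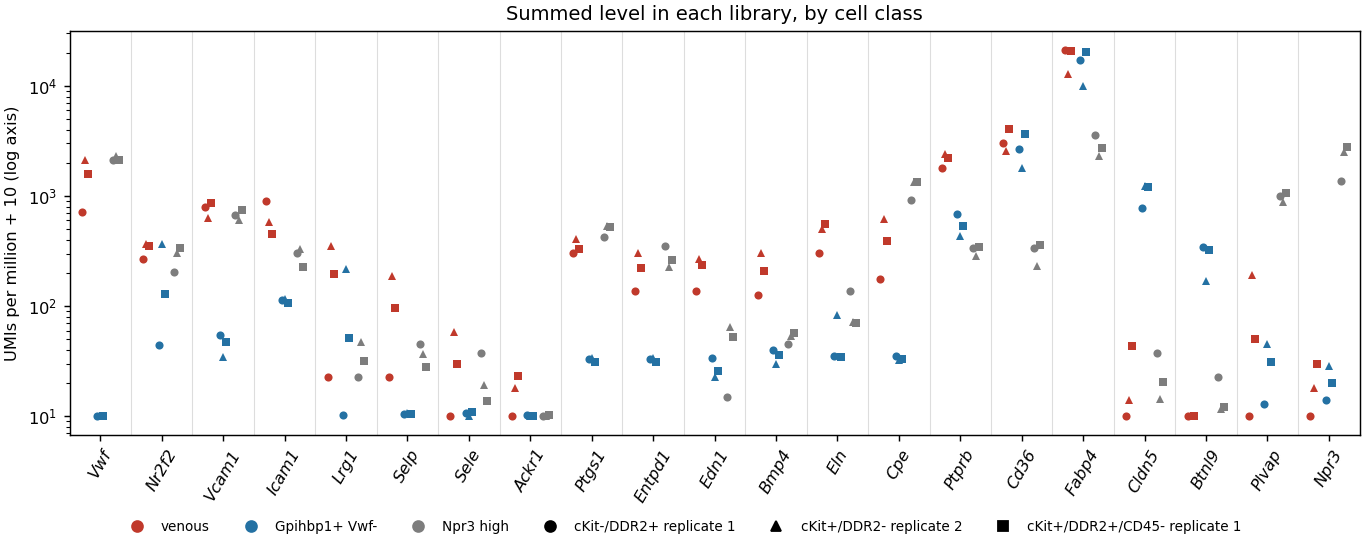
Summed levels of named genes in venous (red), Gpihbp1+ Vwf- (blue) and Npr3-high cells (grey), as CPM plus 10 on a log axis, with one point per class and library and one symbol per library. Vcam1, Ptgs1 and Icam1 lie higher in venous than in Gpihbp1+ Vwf- cells in every library, and Cldn5 and Btnl9 lie lower.

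Against Gpihbp1+ Vwf- cells, venous cells had higher Vcam1, Icam1, the prostaglandin enzyme Ptgs1, the vasoconstrictor Edn1 and the elastic fibre gene Eln, and lower Cldn5, Btnl9, Lpl and basement membrane collagen. Of 3178 genes tested on log2(CPM + 10) with library as a block, 98 were higher (3.08% of tests) and 70 lower (2.2%) at an adjusted p under 0.05. All 168 had the same sign in each of the 3 libraries, and the median difference over all genes was -0.04. Fold changes on this scale understate those of low genes. Of the called genes, 39 of the higher averaged under 50 CPM in Gpihbp1+ Vwf- cells and 29 of the lower under 50 CPM in venous cells. These entered the test only through the class where they are high and so had to differ. Vcam1, Ptgs1, Cpe, Edn1, Entpd1, Bmp4, Eln, Ace, Serpina1b, Rasa4, Ptprr and Nuak1 were among the higher ones. Cldn5, Btnl9, Car4, Aqp7, Flt4, Efnb2, Dll4, Gja1 and Lamb1 were among the lower ones.

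The 24 gene lists held 278 genes, and a gene was tested when its mean level over both classes reached 50 CPM. Of 14 listed leukocyte adhesion genes 9 were tested, of which 2 rose and none fell, with a median difference of 0.39. Vcam1 had 781, 626 and 861 CPM in venous and 45.1, 24.2 and 37.5 CPM in Gpihbp1+ Vwf- cells. The log2 difference was 4.09 ± 0.19 (SE, adjusted p = 4.49e-05), for a gene tested only through the venous class. Venous cells with a UMI of Vcam1 numbered 9 of 13, 24 of 30 and 10 of 13, or 8 of 12, 21 of 30 and 8 of 13 at 4000 UMIs per cell. Icam1, the receptor for leukocyte beta-2 integrins, had 896, 565 and 441 CPM against 104, 106 and 96.6 CPM. It was higher in every library, by 2.46 ± 0.22 (SE, adjusted p = 7.28e-04). Selp had only 0.478, 0.806 and 0.481 CPM in Gpihbp1+ Vwf- cells and Sele, E-selectin, 0, 48.4 and 20.03 CPM in venous cells; neither was tested.

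The 250 bases upstream of the annotated start are shown for Icam1, Ptgs1, Edn1 and Cldn5, the first 3 because they rose in every library and Cldn5 because it fell most. They come from RefSeq on build GRCm38.p6, all on the + strand: Icam1 at chr9:21015690-21015939, Ptgs1 at chr2:36230176-36230425, Edn1 at chr13:42301226-42301475 and Cldn5 at chr16:18776597-18776846. Capitals mark GGAAG on either strand (CTTCC on the other), a core bound by ETS factors, and GGAANTTCC, a form of the NF-kappaB site. Both motifs were chosen after the sequences were read, and a match is a description only. RefSeq promoters were found for 10 of 14 genes looked up, and not for Vwf, Vcam1, Eln and Cpe.
Icam1: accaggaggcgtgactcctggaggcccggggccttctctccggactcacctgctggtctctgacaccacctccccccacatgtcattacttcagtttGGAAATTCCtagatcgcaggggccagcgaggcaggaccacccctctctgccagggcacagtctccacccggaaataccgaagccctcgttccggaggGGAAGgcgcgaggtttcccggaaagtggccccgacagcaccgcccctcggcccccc
Ptgs1: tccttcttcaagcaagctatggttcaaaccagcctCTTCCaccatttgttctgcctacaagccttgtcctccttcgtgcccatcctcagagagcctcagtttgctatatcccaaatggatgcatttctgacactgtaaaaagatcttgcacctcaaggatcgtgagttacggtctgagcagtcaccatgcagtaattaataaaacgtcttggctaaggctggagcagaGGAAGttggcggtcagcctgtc
Edn1: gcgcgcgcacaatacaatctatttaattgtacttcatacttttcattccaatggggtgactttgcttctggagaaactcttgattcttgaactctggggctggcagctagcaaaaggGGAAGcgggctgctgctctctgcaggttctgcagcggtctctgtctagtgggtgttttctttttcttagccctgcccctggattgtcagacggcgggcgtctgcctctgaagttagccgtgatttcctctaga
Cldn5: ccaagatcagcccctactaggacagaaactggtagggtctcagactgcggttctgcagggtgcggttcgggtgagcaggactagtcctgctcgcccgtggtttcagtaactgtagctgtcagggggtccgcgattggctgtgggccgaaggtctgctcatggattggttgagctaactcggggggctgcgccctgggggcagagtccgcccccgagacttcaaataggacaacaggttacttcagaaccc
GGAAG was found 1 time for Icam1, 2 times for Ptgs1, 1 time for Edn1 and 0 times for Cldn5, and GGAANTTCC only for Icam1. Of all 32851 promoter windows, 64.1% hold GGAAG on either strand and 0.813% (267) hold GGAANTTCC, so only the second letter string is rare.

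Of 16 listed genes of vascular tone and shear response 12 were tested, of which 6 rose and none fell (median 0.79). Ptgs1, cyclooxygenase 1, makes the precursor of prostacyclin and thromboxane and had 295, 396 and 321 CPM against 23.1, 23.8 and 20.9, a log2 difference of 3.40 ± 0.21 (SE, adjusted p = 1.36e-04). Edn1, endothelin 1, had 128, 258 and 227 CPM (2 of 13, 11 of 30 and 4 of 13 cells) against 24.0, 12.5 and 15.9, a difference of 2.93 ± 0.34 (SE, adjusted p = 0.00217). Of the 12 genes, 3 averaged under 50 CPM in Gpihbp1+ Vwf- cells, namely Ptgs1, Edn1 and Ace. These were tested only through the venous class and had to come out higher. The angiotensin-converting enzyme gene Ace rose by 2.06 ± 0.25 (SE, adjusted p = 0.00274). The receptor gene for calcitonin-like peptides, Calcrl, rose by 2.05, the natriuretic peptide receptor Npr1 by 1.07 and the nitric oxide synthase Nos3 by 1.03 (adjusted p = 7.28e-04, 0.0383 and 0.0292). The calls of Npr1 and Nos3 held in only 8 of 19 and 11 of 19 alternative settings, and not without cKit+/DDR2- replicate 2 (adjusted p = 0.145 and 0.105) nor without cKit+/DDR2+/CD45- (0.19 and 0.128).

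Of 8 tested granule and haemostasis genes, 2 rose and 1 fell, with a median of 0.41. The 2 that rose, Edn1 and Entpd1, averaged under 50 CPM in Gpihbp1+ Vwf- cells and were tested only through the venous class. Entpd1, the CD39 enzyme that breaks down platelet-activating ATP and ADP at the cell surface, had 128, 291 and 214 CPM against 23.2, 23.8 and 20.9, a rise of 2.69 ± 0.28 (SE, adjusted p = 0.0014). Thbd, thrombomodulin, which switches thrombin to anticoagulant activity, differed by 0.63 ± 0.17 (SE, adjusted p = 0.0858). Cd63, a membrane protein of granules and lysosomes, changed by -1.87 ± 0.25 (SE, adjusted p = 0.00442).

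Of 12 tested cytokine and chemokine genes 2 rose and 1 fell (median 0.83). Il6st, the shared gp130 receptor chain of the IL-6 family, rose by 1.74 ± 0.17 (SE, adjusted p = 9.90e-04), and Lifr, its partner for leukaemia inhibitory factor, by 1.90 ± 0.21 (SE, adjusted p = 0.00169). Cxcl12, the chemokine ligand of CXCR4, changed by -1.88 ± 0.14 (SE, adjusted p = 3.85e-04). Vegfc, the growth factor of lymphatic vessels, was the only arterial-list gene to rise, by 1.79 ± 0.20 (SE, adjusted p = 0.0021). Bmp4, a growth factor of the TGF-beta superfamily named after its values were seen, had 115, 295 and 200.3 CPM against 29.6, 19.8 and 26.2. It lay higher in every library, by 2.52 ± 0.33 (SE, adjusted p = 0.00404), but was tested only through the venous class.

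Matrix genes moved both ways, with 2 of 18 tested higher, 6 lower and a median of -0.38. Eln, elastin, had 295, 496 and 541 CPM in venous and 25.2, 72.6 and 24.3 CPM in Gpihbp1+ Vwf- cells, higher in all 3 libraries by 3.25 ± 0.27 (SE, adjusted p = 6.88e-04). Fbln2, fibulin 2, which binds elastic fibres and basement membranes, rose by 1.76 ± 0.31 (SE, adjusted p = 0.0159). The basement membrane genes Col4a1, Col4a2, Lamb1 and Lamc1 and the collagen-binding Sparc differed by -1.56, -2.13, -1.92, -1.04 and -0.94 (adjusted p = 8.62e-04, 0.0014, 0.017, 0.0356 and 0.0126). Within the list, the called elastic fibre genes Eln and Fbln2 were thus higher and the called basement membrane genes lower. Eln was tested only through the venous class and Lamb1 only through Gpihbp1+ Vwf- cells. Fbln5, Hspg2, Nid1 and Lama4 of the list were tested but not called.

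Of 19 tested capillary genes 7 fell and none rose (median -0.74). The comparison class was chosen by the capillary gene Gpihbp1. Of the 19, 4 averaged under 50 CPM in venous cells (Aqp7, Btnl9, Car4 and Timp4), as did Cldn5 of the pan-endothelial list. These were tested only through Gpihbp1+ Vwf- cells and had to come out lower. Cldn5, the tight junction protein claudin 5, had 0, 4.04 and 33.4 CPM in venous and 773, 1210.0 and 1199 in Gpihbp1+ Vwf- cells. It was lower in every library, with a log2 difference of -5.84 ± 0.32 (SE, adjusted p = 8.31e-05). Btnl9, a butyrophilin-like surface protein, had 0 UMIs against 334, 158 and 311 CPM, and Car4, a carbonic anhydrase of the capillary surface, 0 against 159.5, 93.5 and 198 CPM. Counted against a floor of 3 UMIs per library, Car4 was at least 4.15-, 7.72- and 9.86-fold lower. Lpl, lipoprotein lipase, had 307, 52.5 and 26.7 CPM against 1068, 763 and 986 and changed by -3.39 ± 0.46 (SE, adjusted p = 0.00496). Aqp7, a glycerol channel, and Rbp7, a retinoid-binding protein, changed by -2.23 and -1.29 on the log2 scale (adjusted p = 0.00432 and 0.00466).

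Fatty acid handling was split, with 1 of 7 tested genes lower and none higher (median -0.11). The fatty acid transporter Cd36 had 2997, 2551 and 4059.8 CPM against 2649, 1796 and 3613, a difference of 0.28 ± 0.12 (SE, adjusted p = 0.276). The binding protein Fabp4 had 21336, 12693 and 20699.6 CPM against 17159.6, 9878 and 20115, a difference of 0.24 ± 0.09 (SE, adjusted p = 0.217). Neither passed the test, and both differences changed sign, to -0.12 and -0.17, once comparison cells with Prox1 or Mmrn1 were left out. The gene that fell was Lpl.

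Arterial genes fell in 3 of 10 tested cases and rose in 1 (median -1.05), and Notch and ephrin genes fell in 2 of 10 with no rise (median -0.40). Of the 10 arterial genes, 4 averaged under 50 CPM in venous cells, Efnb2 and Dll4 included. Efnb2, the arterial ephrin, changed by -2.45 ± 0.30 (SE, adjusted p = 0.00321). Dll4, the Notch ligand of arterial and sprouting cells, changed by -2.45 ± 0.35 (SE, adjusted p = 0.00633). The gap junction gene Gja1, with UMIs in 4 of 60 members, changed by -3.14 ± 0.49 (SE, adjusted p = 0.00998). Efnb2, Dll4 and Gja1 were thus tested only through Gpihbp1+ Vwf- cells and had to come out lower. Ephb4, the venous receptor for ephrin B2, differed by 0.78 ± 0.19 (SE, adjusted p = 0.0577).

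Of 22 genes of the venous list, 2 belong to the rule and 15 were tested, of which 8 rose and none fell (median 1.37). Of the 15, 6 averaged under 50 CPM in Gpihbp1+ Vwf- cells and so were tested only through the venous class. Besides Vcam1 and Ptgs1, the largest was Cpe, carboxypeptidase E, a peptide-processing enzyme, with 166, 605 and 381 CPM against 25.3, 22.6 and 23.1. It was higher in every library, by 3.37 ± 0.34 (SE, adjusted p = 0.00128). Lrg1 differed by 1.26 ± 0.30 (SE, adjusted p = 0.0526), at 0.159, 208 and 41.3 CPM in Gpihbp1+ Vwf- cells. Ctsh, cathepsin H, rose by 2.28, the LIM protein gene Csrp2 by 1.38, and the membrane protein genes Tmem176a and Tmem176b by 1.37 and 1.31 (adjusted p = 0.0259, 0.0267, 0.0243 and 0.0267). The genes with the largest rises outside the lists included Serpina1b at 3.20, Rasa4 at 3.10, Ptprr at 2.92 and Nuak1 at 2.78 (adjusted p = 2.52e-04, 3.52e-04, 7.28e-04 and 0.00998). Rasa4 is a GTPase-activating protein for Ras, Ptprr a tyrosine phosphatase and Nuak1 an AMPK-related kinase. Serpina1b, Rasa4, Ptprr and Nuak1 also averaged under 50 CPM in Gpihbp1+ Vwf- cells. They were tested only through the venous class and had to come out higher.

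Lymphatic markers moved with part of these results. Cells with Mmrn1 made up 0 of 1081, 162 of 359 and 63 of 564 Gpihbp1+ Vwf- cells, and summed lymphatic markers there were 131, 20000.0 and 5344 CPM. Of 8 tested lymphatic genes 2 were lower in venous cells, with log2 differences of -2.73 ± 0.39 (SE, adjusted p = 0.00675) for the VEGF-C receptor gene Flt4 and -1.78 ± 0.29 (SE, adjusted p = 0.0112) for the fibrinogen-like Fgl2. Members had no Prox1 or Mmrn1 by the rule. Of the 8, 5 averaged under 50 CPM in venous cells, Flt4 included, and were tested only through Gpihbp1+ Vwf- cells, so the count supports nothing. Without comparison cells holding Prox1 or Mmrn1, 133 genes were higher and 111 lower of 3114, and 149 of the 168 calls were kept. Lrg1 then passed the test at 3.35 (adjusted p = 0.0442), Ephb4 at 0.90 (0.0251) and Thbd at 0.81 (0.0222), whereas Cd63 did not, at -0.93 (0.282).

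**Figure D3:**
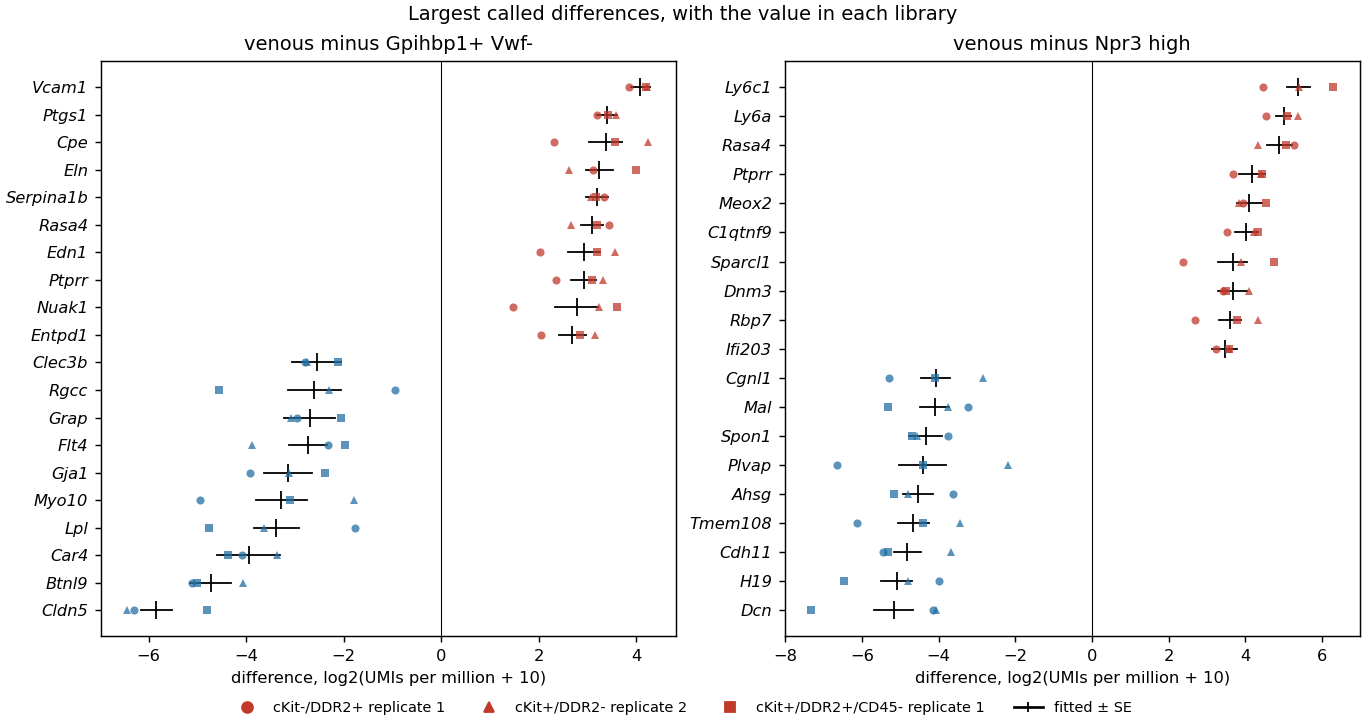
The largest called differences each way among the genes reported, venous minus Gpihbp1+ Vwf- cells (left) and venous minus Npr3-high cells (right), in log2(CPM + 10), with a symbol per library and black bars for the fitted value ± SE. All points of a gene lie on one side of 0, from Vcam1 at 4.09 to Cldn5 at -5.84 on the left and from Ly6c1 at 5.38 to Dcn at -5.17 on the right.

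Of the remaining lists, the immediate early genes had 1 of 18 tested higher (median -0.03), MHC class II and interferon genes none of 7 called (median 0.34), and pan-endothelial genes 3 of 12 higher and 2 lower (median -0.01). The called pan-endothelial genes included Ptprb, the VE-PTP phosphatase that restrains Tie2, at 1780.1, 2385 and 2224 CPM against 682, 419.6 and 522 and a log2 difference of 1.97 ± 0.21 (SE, adjusted p = 0.0014). Eng and Flt1, receptors for TGF-beta family ligands and VEGF-A, rose by 1.14 and 1.13, and the VEGF receptor gene Kdr changed by -1.44 (adjusted p = 0.0353, 0.0112 and 0.00266). Among the endocardial genes 1 of 4 tested rose: Gata6, a transcription factor, by 1.94 ± 0.36 (SE, adjusted p = 0.0199). Of the 4, 1 averaged under 50 CPM in Gpihbp1+ Vwf- cells and 1 in venous cells. Such genes were tested only through the class where they are high, so the count supports nothing and the rise of Gata6 is a description. Fibroblast markers summed to 935, 266 and 60.1 CPM in venous and 7031, 406 and 58.9 CPM in Gpihbp1+ Vwf- cells, and haemoglobin genes to 563, 0 and 6.68 against 4011, 0.806 and 10.3 CPM. Pericyte markers summed to 1392, 233 and 779 CPM in Gpihbp1+ Vwf- cells, above the venous sum of the same library, and the one tested, Rgs5, changed by -2.22 ± 0.38 (SE, adjusted p = 0.0138). One venous cell held 11 of 12 Rgs5 UMIs of cKit+/DDR2- replicate 2, and a pair of cells held all 33 of cKit+/DDR2+/CD45-. The part of these markers in the results was not tested. Among the genes given, calls that held in fewer than 2 of 3 alternative settings, besides Npr1 and Nos3, were those of Lamc1 (10 of 19), Eng (10 of 19), Cd63 and Csrp2 (12 of 19 each) and Ctsh (11 of 17). Without the Nr2f2 condition, which adds the cKit+/DDR2+/CD45+ library, 6 genes were higher and 1 lower. Without cKit-/DDR2+ the counts were 213 higher and 195 lower, without cKit+/DDR2- replicate 2 they were 72 and 48, and without cKit+/DDR2+/CD45- 53 and 43.

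Against Npr3-high cells, venous cells were higher for Ly6c1, Ly6a and the capillary-list genes Cd36, Fabp4 and Rbp7, and lower for Plvap and Dcn. Of 3095 genes tested, 277 were higher (8.95%) and 214 lower (6.91%), with a median difference of 0.04. With median-of-ratios scaling, 215 were higher and 247 lower, with a median of -0.04. Of the called genes, 99 of the higher and 93 of the lower averaged under 50 CPM in one class, and so entered the test only through the class where they are high. Ly6c1 was among the higher ones of these. This comparison shares the venous cells with the one above, so the pair is not independent.

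Of 17 endocardial-list genes 11 were tested, and 10 fell. The class was chosen by Npr3, and 7 of the 11 averaged under 50 CPM in venous cells, so they were tested only because Npr3-high cells have them, and the count supports nothing. Plvap had 996, 864 and 1047 CPM in Npr3-high cells and changed by -4.41 ± 0.62 (SE, adjusted p = 9.77e-04). Nrg1, the neuregulin that endocardium sends to heart muscle, had 0, 64.6 and 0 CPM in venous and 72.5, 239 and 262 CPM in Npr3-high cells. The cadherin gene Cdh11 had 0, 20.2 and 0 against 423, 377 and 389 CPM, and the imprinted RNA H19 0, 28.3 and 0 against 150.1, 1048 and 881 CPM. Fibroblast markers fell in 4 of 5 tested genes (median -3.15). Members had no Pdgfra by the rule, and 3 of the 5 (Col1a2, Col3a1 and Lum) averaged under 50 CPM in venous cells. These 3 were tested only through Npr3-high cells, so this count supports nothing either. Fibroblast markers summed to 5921, 3077 and 3498 CPM in Npr3-high cells, led by Dcn, the collagen-binding proteoglycan decorin, which changed by -5.17 ± 0.51 (SE, adjusted p = 1.37e-04). One venous cell held 24 of 33 Dcn UMIs of cKit+/DDR2- replicate 2.

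Capillary genes rose in 11 of 14 tested cases and fell in 1 (median 2.39), and fatty acid genes rose in 4 of 6 and fell in 1 (median 2.96). Of these, 5 of the 14 and 3 of the 6 averaged under 50 CPM in Npr3-high cells and were tested only through the venous class. Cd36 had 2997, 2551 and 4059.8 CPM in venous and 328, 222 and 346 CPM in Npr3-high cells, a rise of 3.38 ± 0.14 (SE, adjusted p = 5.16e-07). Fabp4 had 3597, 2296 and 2703 CPM in Npr3-high cells, a rise of 2.65 ± 0.10 (SE, adjusted p = 5.16e-07). Every venous value of both genes lay above every Npr3-high one. Fabp5, the related epidermal binding protein, changed by -1.73 ± 0.14 (SE, adjusted p = 5.02e-05). Outside the lists, the genes of the surface proteins Ly6c1 and Ly6a rose by 5.38 and 4.999 (adjusted p = 9.77e-06 and 5.16e-07). Meox2 and Tcf15, transcription factors known from heart capillaries, rose by 4.09 and 3.27 (adjusted p = 5.02e-05 and 5.62e-05). Ly6c1, Meox2 and Tcf15 averaged under 50 CPM in Npr3-high cells. They were tested only through the venous class and had to come out higher.

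Leukocyte adhesion genes rose in 5 of 9 tested cases with none lower (median 1.03). Icam1 had 295, 317 and 216 CPM in Npr3-high cells and rose by 1.13 ± 0.19 (SE, adjusted p = 0.0025). Podxl, Jam2, Esam and Icam2, surface proteins of endothelial junctions and glycocalyx, rose by 1.17, 1.08, 1.03 and 0.83 (adjusted p = 0.00256, 0.00273, 0.00188 and 0.00646). Vcam1, at 658, 596 and 729 CPM in Npr3-high cells, differed by 0.18 ± 0.14 (SE, adjusted p = 0.452).

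Of 17 tested venous-list genes 2 were higher and 9 lower than in Npr3-high cells (median -0.81), the reverse balance to that against Gpihbp1+ Vwf- cells. Lrg1 rose by 1.85 ± 0.51 (SE, adjusted p = 0.0365), with 0.02, 2.89 and 2.63 in the single libraries, so the rise lay in the cKit+ libraries. This call held in 7 of 18 alternative settings and was lost without cKit+/DDR2- replicate 2 (adjusted p = 0.306), without cKit+/DDR2+/CD45- (0.0791) and after thinning to 4000 UMIs (0.587). Cpe had 918, 1328 and 1334 CPM in Npr3-high cells and changed by -1.77 ± 0.22 (SE, adjusted p = 4.38e-04). Ctsh changed by -2.78 ± 0.32 (SE, adjusted p = 2.77e-04) and the venous sialomucin Emcn by -1.08 ± 0.15 (SE, adjusted p = 7.83e-04). Ptgs1 differed by -0.52 ± 0.16 (SE, adjusted p = 0.0563), Entpd1 by -0.38 ± 0.29 (SE, adjusted p = 0.461) and Selp by 1.05 ± 0.59 (SE, adjusted p = 0.302), and none of these passed.

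Vascular tone genes rose in 4 of 13 cases and fell in 2 (median 0.17). Of the 13, 2 averaged under 50 CPM in Npr3-high cells, namely Edn1 and Ace. The 2 that fell averaged under 50 CPM in venous cells, so all of these were tested only through the class where they are high. Edn1 had 5.003, 55.1 and 42.5 CPM in Npr3-high cells and rose by 2.47 ± 0.29 (SE, adjusted p = 2.97e-04). Ace rose by 2.67 ± 0.29 (SE, adjusted p = 2.28e-04) and Npr1 by 1.03 ± 0.24 (SE, adjusted p = 0.0173), while the endothelin receptor gene Ednrb changed by -2.12 and the prostacyclin synthase gene Ptgis by -3.41 (adjusted p = 0.00131 and 0.00175). Matrix genes rose in 6 of 16 cases and fell in 3 (median 0.22): Eln, at 128, 61.7 and 60.7 CPM, rose by 2.31 ± 0.32 (SE, adjusted p = 9.80e-04) and Fbln2 by 2.95 ± 0.18 (SE, adjusted p = 1.12e-05), while Mgp, the inhibitor of vascular calcification, changed by -2.79 ± 0.37 (SE, adjusted p = 7.16e-04). Eln and Fbln2 were therefore called higher in venous cells than in either comparison class, each by its own test. Against Gpihbp1+ Vwf- cells, Eln was tested only through the venous class.

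Of 6 tested MHC class II and interferon genes 3 rose and none fell (median 0.99). Cd74, the MHC class II invariant chain, rose by 2.88 ± 0.47 (SE, adjusted p = 0.00226), H2-Ab1 by 1.83 ± 0.35 (SE, adjusted p = 0.00565) and H2-Aa by 1.77 ± 0.34 (SE, adjusted p = 0.00578). Cytokine genes rose in 3 of 11 and fell in 1 (median 0.40): Cxcl12 rose by 3.01 ± 0.31 (SE, adjusted p = 1.71e-04) while Il6st changed by -0.81 ± 0.15 (SE, adjusted p = 0.0049). Notch and ephrin genes rose in 1 of 8 and fell in 3 (median -0.14), among them Efnb2 by -2.45 and Notch1 by -1.25 (adjusted p = 8.23e-04 and 0.00106). Immediate early genes rose in 2 of 18 and fell in 2 (median 0.14), granule and haemostasis genes in 2 and 2 of 12 (median -0.07), and arterial genes in 3 and 2 of 7 (median 0.76), with Vegfc of the arterial list higher by 2.99 ± 0.30 (SE, adjusted p = 1.49e-04). Of the 7 arterial genes, 3 averaged under 50 CPM in Npr3-high cells and 2 in venous cells, so these were tested only through the other class. The pericyte marker Rgs5 was higher by 2.39 ± 0.50 (SE, adjusted p = 0.00892). Rgs5 averaged under 50 CPM in Npr3-high cells, was tested only through the venous class and had to come out higher. In the cKit+ libraries a few venous cells held nearly all of its UMIs, as given above. Abcc9, another pericyte marker, had 0 UMIs in every venous library and was at least 2.54-, 9.36- and 5.99-fold lower against a floor of 3 UMIs. Abcc9 was tested only through Npr3-high cells. Pericyte markers summed to 145, 141 and 155 CPM in Npr3-high cells, and their part in the results was not tested. Without the Nr2f2 condition 6 genes were higher and 6 lower, and each library left out in turn gave 216 to 267 higher and 197 to 216 lower.

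The genes whose levels ran most like that of Vwf were Ptgs1 (Pearson r = 0.996), Entpd1 (0.989), Vcam1 (0.977), Rfk (0.976) and Spint2 (0.973). These r cover 9 points, the 3 classes in 3 libraries, over 3209 genes, and the 3 points of a library share its depth. Because the classes were cut by Vwf, they describe the classes rather than test a relation.

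The 60 members were not uniform. Of the 5 genes Lrg1, Vcam1, Ackr1, Selp and Sele, 7 cells had a UMI of none, 23 of 1, 14 of 2, 13 of 3 and 3 of 4, and no cell of all 5. Vcam1 was found in 21 of the 24 Selp-positive cells and in 23 of the 36 others, and Lrg1 in 13 of 24 and 11 of 36. The 3 cells with Ackr1 were all Selp-positive, and Sele was found in 5 of 24 and 2 of 36. Whether a gene is seen depends on the UMIs of the cell, and these shares carry no test. Of markers of other cells, at least 2 UMIs of fibroblast genes were found in 23 of 60 members, of smooth muscle genes in 13, of pericyte genes in 7, of macrophage genes in 4, and of cardiomyocyte and of platelet genes in 2 each. Their part in the results was not tested, and no doublet caller was run.

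**Figure D4:**
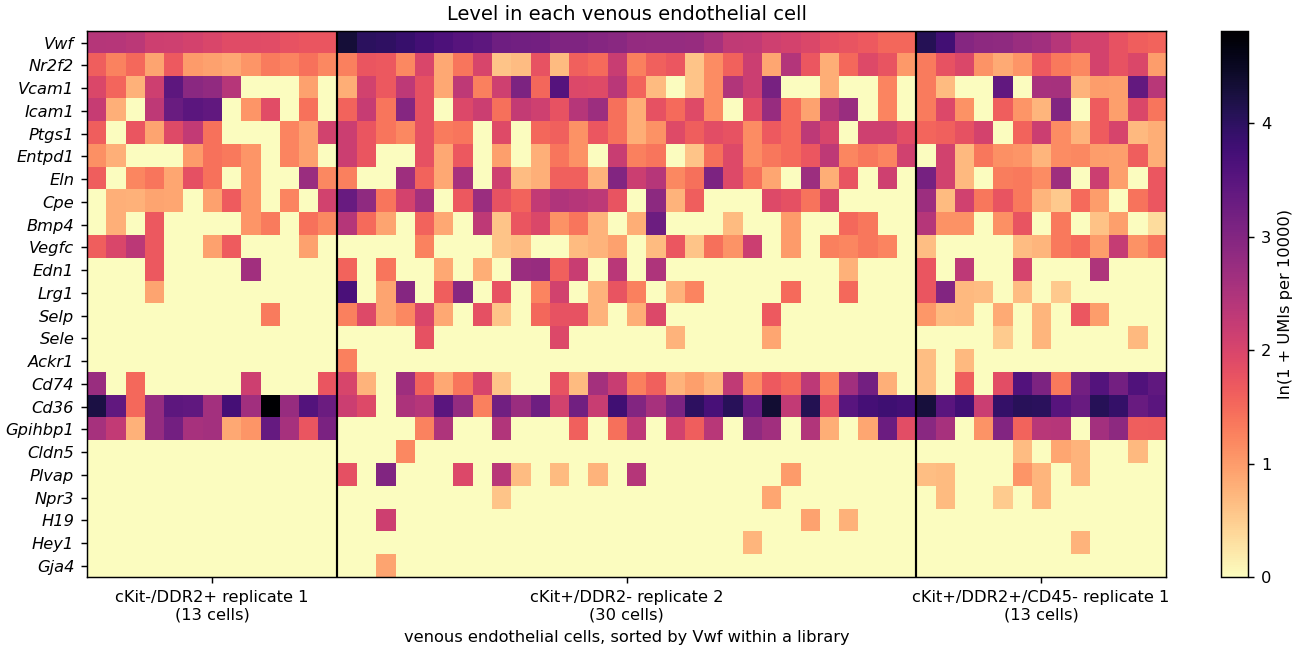
Level of 24 genes in each of the 56 members from the 3 libraries, one column per cell, ordered by Vwf within a library, with colour for ln(1 + UMIs per 10000). Vcam1 is scattered over all 3 libraries, Selp and Sele have UMIs mostly in the cKit+ libraries, and Cldn5 is light in almost every cell.

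Between sorts, the cKit+/DDR2+/CD45- venous cells had the most MHC class II RNA and the cKit-/DDR2+ cells the least. Each sort gave 1 usable library, so no p is given, the sort cannot be told apart from the library, and the intervals are exact, for the ratio without the added 10 CPM, and cover counting error only. A gene was counted when the libraries were at least 2-fold apart and the higher one reached 50 CPM and 20 UMIs. That held for 153 of 1007 genes between cKit+/DDR2+/CD45- and cKit-/DDR2+ (15.2%, 95 higher and 58 lower in the former). It held for 198 of 1767 between cKit+/DDR2+/CD45- and cKit+/DDR2- replicate 2 (11.2%, 68 higher and 130 lower). It held for 258 of 1379 between cKit+/DDR2- replicate 2 and cKit-/DDR2+ (18.7%, 200 higher and 58 lower).

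Cd74 had 205, 436 and 1676 CPM, with UMIs in 4 of 13, 26 of 30 and 11 of 13 venous cells. The class II chains H2-Aa (102, 194 and 608 CPM) and H2-Ab1 (154, 189.7 and 701 CPM) ran in the same order across the libraries. At 4000 UMIs per cell Cd74 was found in 4 of 12, 19 of 30 and 9 of 13 venous cells, in 16 of 763, 87 of 302 and 23 of 466 Gpihbp1+ Vwf- cells and in 0 of 39, 400 of 1282 and 109 of 481 Npr3-high cells. Fibroblast-marker cells had it in 10 of 708, 33 of 127 and 1 of 35. In cKit+/DDR2+/CD45- Cd74 was 2.97 (interval 2.30 to 3.86) above cKit-/DDR2+ and 1.92 (1.61 to 2.28) above cKit+/DDR2- replicate 2 on the log2 scale. The Gpihbp1+ Vwf- cells of the same libraries differed by -0.98 and -3.64, the opposite direction. Those of cKit+/DDR2- replicate 2 included the Mmrn1 cells described above. Npr3-high cells differed by 4.36 and 0.07, the same direction as venous cells. All 5 class II genes of the list were highest in cKit+/DDR2+/CD45- in Npr3-high cells too, so this was not particular to venous cells. Other leukocyte markers were at 0 in all 3 venous groups.

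Of 9 interferon genes on the list 8 had UMIs in venous cells, of which 5 were highest in cKit+/DDR2+/CD45-, 2 in cKit-/DDR2+ and 1 in cKit+/DDR2- replicate 2. The same library was highest for 7 of 9 in Gpihbp1+ Vwf- and 6 of 9 in Npr3-high cells, so this was not particular to venous cells. In venous cells Isg15 had 64.0, 36.3 and 20.03 CPM and Rsad2 38.4, 0 and 6.68 CPM, so these were highest in cKit-/DDR2+. Iigp1, on the list, and Igtp, Gbp7, Tap1 and Wars, outside it, were named for their large differences and are no evidence for the group. Iigp1 had 51.2, 307 and 507 CPM, Igtp 25.6, 88.8 and 234 CPM and Gbp7 89.6, 137 and 568 CPM. Tap1 had 38.4, 28.3 and 174 CPM and Wars 179, 56.5 and 401 CPM, all 5 highest in cKit+/DDR2+/CD45-. In log2 terms Iigp1 was 3.08 (interval 1.89 to 5.22) above cKit-/DDR2+, Igtp 2.77 (interval 1.23 to 6.29) and Gbp7 2.54 (interval 1.56 to 4.02), with differences in Gpihbp1+ Vwf- cells of 2.54, 1.59 and 1.22. Npr3-high cells differed by 2.60, 3.15 and 2.38 for these genes. Against cKit+/DDR2- replicate 2, Gbp7 was 1.97 (interval 1.46 to 2.67) higher. Tap1, the peptide transporter for MHC class I, was 2.26 (interval 1.38 to 4.07) higher and Wars, a tryptophan tRNA synthetase induced by interferon gamma, 2.63 (interval 1.97 to 3.78). The Gpihbp1+ Vwf- cells showed 1.04, 1.202 and 0.49 for the same genes and Npr3-high cells 0.65, 0.50 and 0.68, the same direction at smaller sizes.

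The cKit-/DDR2+ venous cells were set apart by Gsn, an actin-severing protein abundant in fibroblasts, at 538, 52.5 and 20.03 CPM. On the log2 scale Gsn in cKit+/DDR2+/CD45- differed from cKit-/DDR2+ by -4.19 (interval -7.08 to -3.10), and Gpihbp1+ Vwf- cells by -6.94. Fibroblast markers, Gsn among them, moved with it: 7, 6 and 4 of 9 had UMIs in venous cells, summing to 935, 266 and 60.1 CPM, with Pdgfra at 0 by the rule and Col1a1 at 0 in the first 2 libraries. Their part was not tested. Rgcc and Lpl, a cell cycle regulator and lipoprotein lipase of capillaries, had 474, 60.5 and 20.03 and 307, 52.5 and 26.7 CPM and were thus highest in cKit-/DDR2+ too. Gpihbp1+ Vwf- cells were also highest in that library, at 927, 338 and 693 CPM for Rgcc and 1068, 763 and 986 CPM for Lpl. Lrg1 was 3.94 (interval 2.21 to 10.05) higher in cKit+/DDR2- replicate 2 than in cKit-/DDR2+. Gpihbp1+ Vwf- cells differed by 4.43 and Npr3-high cells by 1.06, the same direction. Plvap had no UMI in cKit-/DDR2+ and was at least 4.73-fold higher in cKit+/DDR2- replicate 2. On the log2 scale Gpihbp1+ Vwf- cells differed by 1.79 and Npr3-high cells by -0.20 for Plvap. Tagln, a smooth muscle actin-binding protein, also had none in cKit-/DDR2+, but 40 of its 46 UMIs in cKit+/DDR2- replicate 2 came from 1 cell, without which it stood at 25.2 CPM. Of the immediate early genes Fos and Egr1 and the heat shock gene Hspa1a, chosen for their differences, Fos had 1319, 1352 and 280.4 CPM, Egr1 832, 1804 and 220.4 CPM and Hspa1a 1306, 1283 and 347 CPM. All of these were lowest in cKit+/DDR2+/CD45-. One cell held 72 of 103 Fos UMIs of cKit-/DDR2+. In Gpihbp1+ Vwf- cells the same library was lowest, with 835, 852 and 316 CPM for Fos, 951, 972 and 763 for Egr1 and 1391, 1748 and 1291 for Hspa1a. Between cKit+/DDR2+/CD45- and cKit-/DDR2+ the latter pair thus differed little there. The connective tissue growth factor gene Ctgf differed between cKit+/DDR2+/CD45- and cKit+/DDR2- replicate 2 by -2.95 (interval -4.41 to -2.14) on the log2 scale. Gpihbp1+ Vwf- cells differed by -1.16 and Npr3-high cells by 0.28 for Ctgf.

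**Figure D5:**
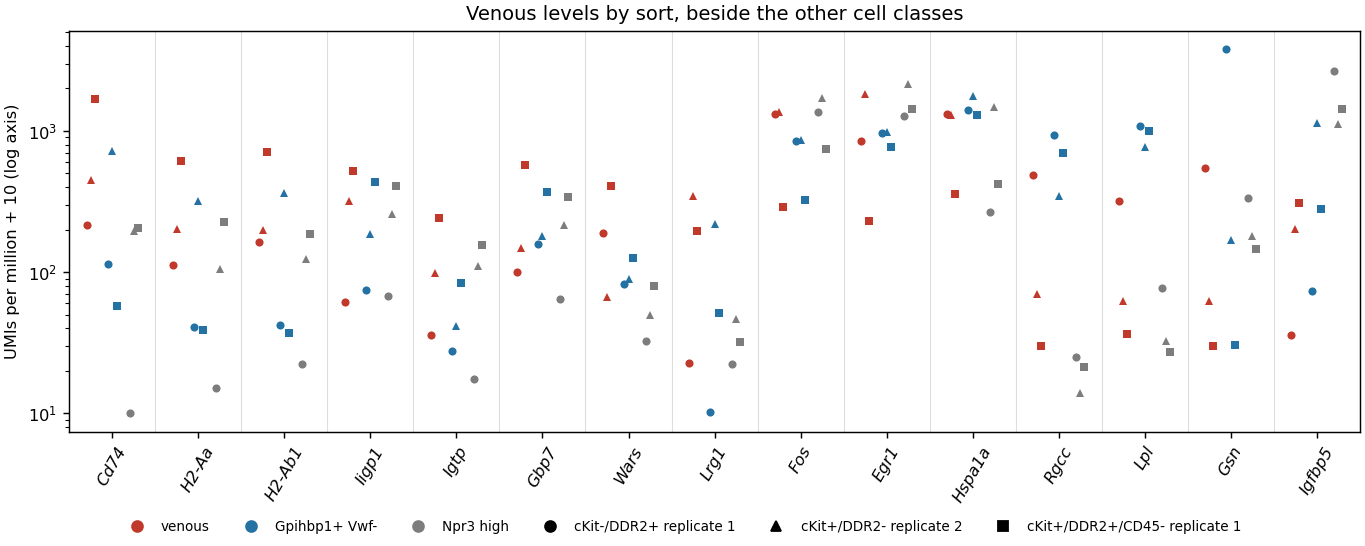
Summed levels of genes named between sorts in venous (red), Gpihbp1+ Vwf- (blue) and Npr3-high cells (grey), as CPM plus 10 on a log axis, with one symbol per library. Among venous cells Cd74 is highest in cKit+/DDR2+/CD45- and Gsn in cKit-/DDR2+. Gpihbp1+ Vwf- cells share the order for Gsn but not for Cd74, and Npr3-high cells share it for both.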

How the data were processed

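The deposited tables hold, per the file values, the natural log (ln) of 1 plus UMIs per 10000 for each gene and cell. Per the submitters' processing notes the authors used Cell Ranger, Seurat 4.0.4 and the mm10 genome, with cell filters not given in the sources used here. Because all values were whole UMIs within 0.01 after back-calculation, the UMIs were recovered and summed per class and library. Classes with at least 10 cells entered limma 3.58.1 (R 4.3.3) on log2(CPM + 10) with library as a block, for genes at a mean of 50 CPM or more, and p-values were adjusted by Benjamini-Hochberg over all genes tested (threshold 0.05). The members, lists and tests were chosen with earlier results of these data known. Genes of the rule were left out of the tests. The genes named were the 10 largest calls each way with one sign in every library, up to 4 per list, the 6 largest each way between sorts, and the 5 most like Vwf, with further list members where they show the list's direction. The 3 tested libraries come from 3 sorts with no statement of separate animals, so p-values measure the spread between these libraries. Tests were checked on simulated data. No ambient RNA correction or doublet removal was made. Promoters were read from RefSeq. Python 3.11.15, numpy 2.4.6, pandas 2.3.3, scipy 1.17.1 and matplotlib 3.10.9 were used. Alternatives changed the pseudocount, the gene filter, the scaling, depth, the block, the rule, the comparison cells and the libraries used. A few genes that the naming rule picks are not reported here.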

Additional observations from a re-analysis of the deposited data

How the results depend on the processing

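Against Gpihbp1+ Vwf- cells, the counts of higher and lower genes (98 and 70) became 24 and 14 with no filter, 63 and 38 at a mean of at least 100 CPM and 54 and 26 without the library block. Without the condition on Nr2f2, which brings in cKit+/DDR2+/CD45+, they were 6 and 1, and with libraries of at least 1 venous cell 19 and 56. With voom weights 171 were higher, against comparison cells with Vwf below 1.5 and no Nr2f2 158 and 154, and without cells holding Prox1 or Mmrn1 111 were lower. Leaving out each library in turn gave 53 to 213 higher and 43 to 195 lower.

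Against Npr3-high cells, the counts (277 and 214) became 26 and 11 with no filter, 176 and 134 at 100 CPM, 169 and 138 without the block, 6 and 6 without the Nr2f2 condition and 119 and 87 after thinning to 4000 UMIs. With voom weights 426 were higher, with median-of-ratios scaling 215 were higher and 247 lower, and with libraries of at least 1 venous cell 13 were higher and 65 lower. Each library left out gave 216 to 267 higher and 197 to 216 lower. The median of all genes moved by over 0.1 with libraries of at least 1 venous cell (to -0.50 and -0.41 for the comparisons in this order) and, against Npr3-high cells, without the Nr2f2 condition (from 0.04 to -0.0891).

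The share of venous cells over all libraries became 0.721% at Vwf of at least 1.0, 0.401% at 2.0 (0.263% in cKit-/DDR2+), and 0.894% without Nr2f2 (1.56% in cKit+/DDR2- replicate 2, 0.308% in cKit+/DDR2+/CD45+). It was 1.09% when cells with C1qa, Col1a1, Kcnj8 or Myh11 were left out (1.06% in cKit-/DDR2+, 1.03% in cKit+/DDR2+/CD45+) and 1.13% of endothelial cells (1.52% in cKit+/DDR2- replicate 2, 1.18% in cKit+/DDR2+/CD45+). Without shared barcodes it was 0% in the smaller cKit+/DDR2- library and in cKit+/DDR2+/CD45+. Between sorts, a pseudocount of 50 CPM gave 93, 84 and 141 genes, in the order of the text.

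Sign changes against Gpihbp1+ Vwf- cells were as follows. Fabp4 was -0.0100 as a mean over cells, -0.20 without the Nr2f2 condition, -0.17 after thinning, -0.14 against cells with Vwf below 1.5 and no Nr2f2, -0.13 with at least 1 venous cell and -0.17 without Prox1 or Mmrn1 cells. Cd36 was -0.60 without the Nr2f2 condition, -0.13 against cells with Vwf below 1.5 and no Nr2f2, -1.41 with at least 1 venous cell and -0.12 without Prox1 or Mmrn1 cells. Thbd was -0.33 and Ephb4 -0.15 without the Nr2f2 condition, Nrp2 0.0044 after thinning, Fgl2 0.34 against cells with Vwf below 1.5 and no Nr2f2, and Nos3 -0.61 and Thbd -1.17 with at least 1 venous cell.

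Against Npr3-high cells, Ephb4, Thbd and Vcam1 were -0.64, -0.35 and -0.0423 without the Nr2f2 condition, and Vcam1 was -0.0828 without cells holding other types' genes and -0.45 after thinning. Entpd1 was 0.16 with voom and ran from -0.79 to 0.0950 with each library left out, the latter without cKit-/DDR2+. With at least 1 venous cell, Atf3 was 0.21, Ephb4 -0.48, H2-Aa -0.0830, Hspg2 -0.59, Icam1 -0.23, Kdr -0.27, Klf4 -0.69, Nfkbia -1.91, Sparc -0.14, Thbd -1.13 and Vcam1 -1.25. The cause was not tested. Of the values of named genes under all settings, 959 and 1408 kept direction and side of the threshold for the comparisons in this order, 199 and 295 lost the call and 18 and 10 gained it.

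Libraries with at least 20 venous cells (1) or with Vwf of at least 2.0 (2) were too few, so these settings were not run. No paired analysis was possible because the labels give no replicate number shared between sorts; both classes of a comparison come from the same library, which is the block. With 13 venous cells and 78085 UMIs, cKit-/DDR2+ limits what can be seen of low genes. The settings on Prox1 or Mmrn1 cells, shared barcodes, libraries of at least 1 venous cell and the minimum of 10 venous cells between sorts were chosen after seeing the data.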
